A study of Mus musculus with 7 samples.

Results

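Long non-coding RNAs grouped by name as nuclear were examined in cortical cells of mouse embryos with and without knockdown of Trnp1. The genes considered were 8 named RNAs: Malat1, Neat1, Miat, Rmst, Sox2ot, Gas5, Snhg1 and Snhg11. They are listed by name, and the list uses no measured value, though it was drawn up with earlier results of these data known. A gene counted as measured when a probe set of the array carried its symbol and no other, and the probe set with the highest mean level stood for the gene. By this rule 3 of the 8 were measured, Malat1, Gas5 and Snhg11, out of 19938 genes in all. Neat1, Miat, Rmst, Sox2ot and Snhg1 were not measured and are not analysed here. Total RNA was hybridised, so the place of an RNA within the cell was not measured.

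The samples came from cerebral cortex of C57BL/6 embryos of embryonic day 14, with 4 control samples of wild-type genotype and 3 Trnp1 knockdown samples. Both groups were electroporated on embryonic day 13 with constructs that included green fluorescent protein, and fluorescent cells were sorted 24 h later. Sorting therefore selected for cells that took up a construct, whatever their type, and the purity of the sorted cells was not measured here. Samples are labelled as biological replicates, and the labels give neither the knockdown construct nor the number of embryos in a sample. Each sample was hybridised to 1 Affymetrix array, and levels are log2 values after RMA normalization, written below in the order of the replicate numbers.

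Long non-coding RNAs are transcripts with no known protein product. Malat1 is an abundant RNA of nuclear speckles, the bodies that hold splicing factors. Gas5 and Snhg11 are host genes of small nucleolar RNAs, which are cut from introns and guide the chemical modification of other RNAs. The spliced Gas5 RNA begins with a run of pyrimidines, a terminal oligopyrimidine (TOP) start that ties translation to growth signals, and it is degraded by nonsense-mediated decay when translated. Snhg11 is known as an RNA of neurons.

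The starts of the measured genes are shown for the first bases of Gas5 and the letters it shares with Malat1. Malat1 is the measured member closest to Gas5 in its levels across arrays. The windows come from RefSeq on build GRCm38.p6 and run from 90 bases before the annotated start to 30 bases from the start onward. Malat1 lies at chr19:5802643-5802762 on the minus strand, the start of Gas5 shown lies at chr1:161035076-161035195 on the plus strand, and Snhg11 lies at chr2:158375623-158375742 on the plus strand. Capitals mark TGACG on either strand, the half-site of the cAMP response element, and CTTTC where it forms the first bases of the transcript.
Malat1: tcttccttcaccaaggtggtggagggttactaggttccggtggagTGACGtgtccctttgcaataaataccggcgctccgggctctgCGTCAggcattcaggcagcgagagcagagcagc
Gas5: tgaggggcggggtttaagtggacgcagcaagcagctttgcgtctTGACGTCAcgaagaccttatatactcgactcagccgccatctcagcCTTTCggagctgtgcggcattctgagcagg
Snhg11: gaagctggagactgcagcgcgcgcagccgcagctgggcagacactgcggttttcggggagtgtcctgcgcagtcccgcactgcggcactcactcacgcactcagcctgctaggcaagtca

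CTTTC formed the first bases of this Gas5 start and of 45 of the 32851 RefSeq start windows (0.137%). The letters were read from the Gas5 start itself, so this share does not say how rare TOP starts are. A second annotated start of Gas5, further upstream, did not begin with these letters. TGACG was found in the Malat1 window and in this Gas5 window, where the matches on both strands overlap, and in 12.3% of all windows of this length. The letters were not found in the Snhg11 window or at the upstream Gas5 start. These motifs were picked after the sequences were read, and a match is a description of the letters only.

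The targeted gene was checked first. Trnp1, a nuclear protein of cortical progenitors, had log2 levels of 5.07, 4.999, 5.24 and 5.22 in controls and 4.80, 4.85 and 4.55 in knockdown samples. The highest knockdown value was below the lowest control value, in the direction that the labels give. Of all genes, 3.07% were lower without overlap in the same way. The groups differed by -0.40 or 0.758-fold (SE 0.12, limma adjusted p = 0.825), with the mean level at percentile 51.4 of all genes. Exact permutation of the 7 arrays, two-sided as throughout, gave p = 0.0286, which is the smallest value that 35 splits allow.

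The 3 measured RNAs were all higher on average in knockdown samples, but none passed the test over all genes, and neither did any other gene (0% of 19938). Malat1 differed most, by 0.46 on the log2 scale or 1.38-fold, and Gas5 least, by 0.16 or 1.12-fold. Snhg11 differed by 0.33 or 1.26-fold, and this rested on a single knockdown array. In all 3 cases 1 or more knockdown arrays lay within the range of the controls, whereas 5.67% of all genes had groups that did not overlap. Of all 19938 genes, 49.8% had a higher mean in knockdown samples, so direction alone is near an even split in the background.

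**Figure D1:**
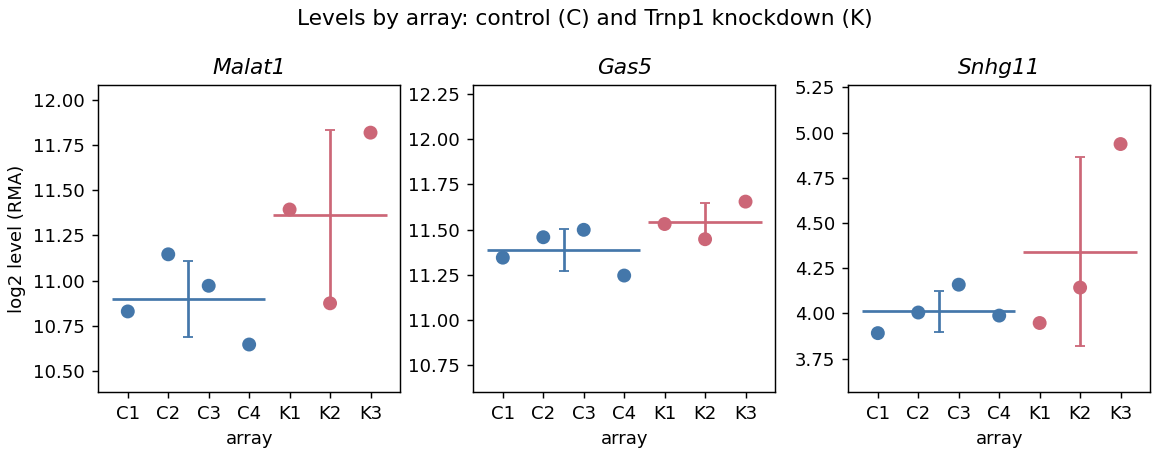
Log2 levels of Malat1, Gas5 and Snhg11 (y axes, each spanning the same number of log2 units) in control arrays C1 to C4 and knockdown arrays K1 to K3 (x axes), with group means as lines and SD as bars. K3 is the highest array for each gene, and K2 lies within the control range for each.

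Malat1 (Entrez 72289) had log2 levels of 10.83, 11.15, 10.97 and 10.65 in controls and 11.39, 10.87 and 11.82 in knockdown samples. Knockdown replicates 1 and 3 lay above every control, and knockdown replicate 2 lay inside the control range. The group means were 10.90 ± 0.212 (SD, n = 4) and 11.36 ± 0.473 (SD, n = 3). The difference of 0.46 (SE 0.23, 95% interval -0.079 to 1.01) did not pass limma's test, with an adjusted p of 0.825 over all genes. The exact permutation test gave p = 0.171. In fold terms the interval ran from 0.946 to 2.01, so neither no change nor a doubling lies outside what these arrays allow.

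The value of Malat1 depended on which knockdown array was counted. Without knockdown replicate 2 the difference was 0.71 (SE 0.19, limma adjusted p = 0.262), and without knockdown replicate 3 it was 0.24 (SE 0.20). Without control replicate 4 and knockdown replicate 3 together it was 0.15. The other replicates left out in turn gave values between 0.38 and 0.55. All alternatives other than leaving out 1 array, with other scalings of the arrays among them, ran from 0.15 to 0.59.

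Malat1 is among the brightest genes of the table, at percentile 99.5 of mean level, and bright genes as a group were lower in knockdown samples. The median difference was -0.16 over the 2136 genes with a mean level over 8, against -0.001 over all genes. The spread of log2 levels within an array was narrowest in knockdown replicates 1 and 3, at 5.243 and 5.194. It was 5.374 to 5.492 in the other arrays, and its part in this shift was not tested. Among the 500 genes nearest to Malat1 in level the median was -0.15, and the Malat1 difference lay at percentile 97.6 of theirs. This percentile describes the arrays and is no test of Malat1.

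**Figure D2:**
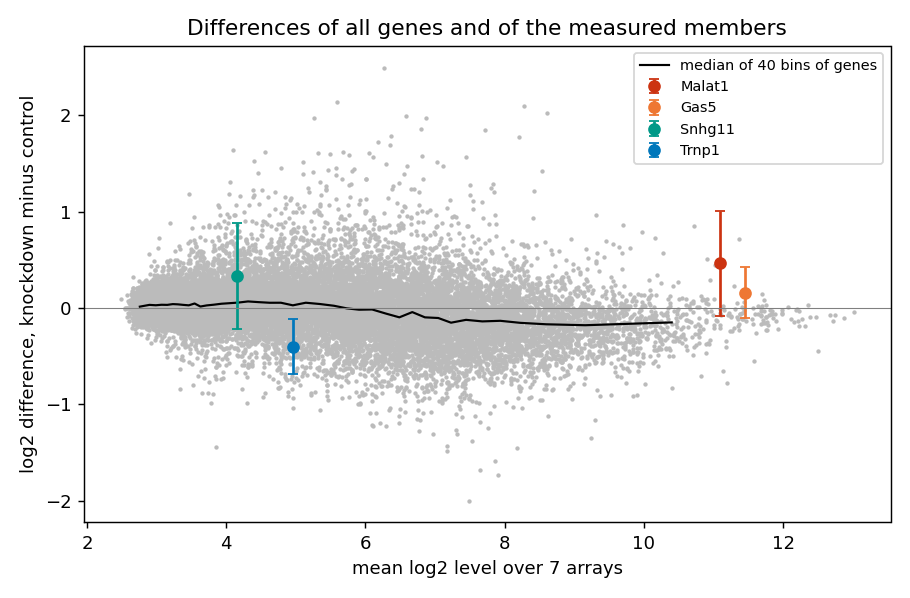
Difference of each gene in log2 units, knockdown minus control (y axis), against its mean log2 level over 7 arrays (x axis), with grey points for all 19938 genes, a line for the median of bins of equal gene number and coloured points with 95% limma intervals for the members and Trnp1. Malat1 and Gas5 sit at the bright end above the line, and the intervals of all 3 members cross 0.

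Gas5 (Entrez 14455) was steadier. Its log2 levels were 11.35, 11.46, 11.50 and 11.25 in controls and 11.53, 11.45 and 11.66 in knockdown samples. Knockdown replicates 1 and 3 again lay above every control, by a narrow margin for replicate 1, and knockdown replicate 2 lay among the controls. The means were 11.39 ± 0.114 (SD, n = 4) and 11.54 ± 0.105 (SD, n = 3), a difference of 0.16 (SE 0.11, 95% interval -0.11 to 0.42, limma adjusted p = 0.83). The exact permutation test gave p = 0.171. The fold interval of 0.93 to 1.34 leaves out a change of 1.5-fold or more in either direction for this probe set.

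The size of the Gas5 difference followed the scaling of the arrays. It was 0.051 when the median of every array was made equal, and 0.28 after cyclic loess normalization. Its percentile among the 500 genes of like level was 94.6. Setting the medians equal moves the median difference of all genes to -0.11, so most of that step is shared by all genes. Relative to this shift the Gas5 value stayed positive under every scaling tried.

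Gas5 has 3 further probe sets, which the table of array annotation ties to the same transcript without saying which part of it each reads. All varied far more between arrays than the brightest one. The second by mean level read 8.65, 10.06, 9.89 and 9.65 in controls and 9.95, 9.01 and 10.54 in knockdown samples, a difference of 0.27 (SE 0.44). The third read 7.49, 8.27, 7.70 and 7.25 in controls and 9.46, 7.68 and 8.87 in knockdown samples, a difference of 0.99 (SE 0.43, 95% interval -0.016 to 2.0, limma adjusted p = 0.819 over all probe sets). Here too knockdown replicates 1 and 3 lay above every control and replicate 2 did not.

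The fourth Gas5 probe set split the controls themselves. It read 7.19 and 7.30 in control replicates 2 and 3 but 4.91 and 4.79 in control replicates 1 and 4, a range of 2.51 log2 units. Its knockdown values were 7.44, 5.96 and 6.92, and the difference was 0.73 (SE 0.75). Its control SD lay at percentile 99.2 of all probe sets with 1 symbol, against 24.8 for the brightest Gas5 probe set. The mean over the 4 probe sets differed by 0.54 (SE 0.38, limma adjusted p = 0.825), against 0.16 for the brightest alone. The size of the Gas5 difference therefore depends on the probe set read. All 4 probe sets were higher on average in knockdown samples, and none passed.

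**Figure D3:**
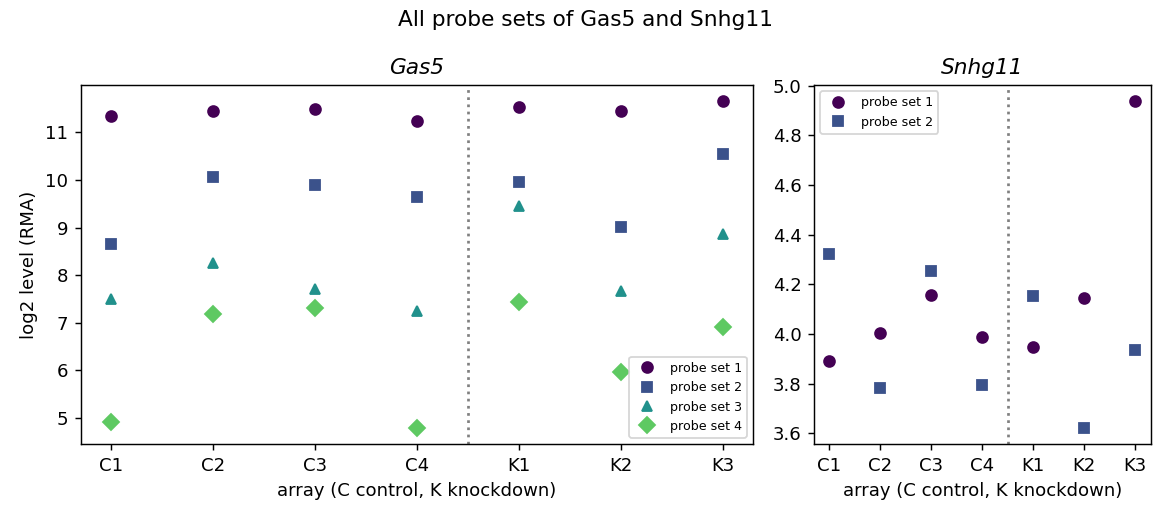
Log2 levels (y axes) of the 4 probe sets of Gas5 and the 2 of Snhg11, numbered by mean level, in each array (x axes). The brightest Gas5 probe set is nearly level across arrays while the fourth spans 2.51 units within the controls, and the 2 Snhg11 probe sets part in K3.

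Small nucleolar RNAs lie in the introns of the host genes, and 2 of those inside Gas5, Snhg1 or Snhg11 had a probe set of their own. Snord47, from a Gas5 intron, read 7.35, 7.79, 7.52 and 6.65 in controls and 6.66, 6.60 and 8.36 in knockdown samples, a difference of -0.12 (SE 0.47). It was high only in knockdown replicate 3 and at the foot of the controls in replicate 1, unlike its host. Snord22, from an intron of Snhg1, read 5.64, 6.34, 6.48 and 5.25 in controls and 6.92, 6.23 and 6.20 in knockdown samples, a difference of 0.52 (SE 0.34). Neither passed. Probe sets of small RNAs can also be read by intron-containing precursors of the host, and these cannot be told apart here.

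Snhg11 (Entrez 319317) was dim, at percentile 38.3 of mean level and below the array medians of 4.398 to 4.61 in every array but 1. Its log2 levels were 3.89, 4.01, 4.16 and 3.99 in controls and 3.95, 4.14 and 4.94 in knockdown samples. Knockdown replicate 3 stood above all other arrays, while replicates 1 and 2 lay within the control range. The means were 4.01 ± 0.111 (SD, n = 4) and 4.34 ± 0.524 (SD, n = 3), a difference of 0.33 (SE 0.23, 95% interval -0.21 to 0.88, limma adjusted p = 0.829). The exact permutation test gave p = 0.286.

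Without knockdown replicate 3 the Snhg11 difference was 0.034 (SE 0.13), and without knockdown replicate 1 it was 0.53. The second probe set of Snhg11, which the annotation ties to 1 of the transcripts listed for the first, went the other way. It read 4.32, 3.78, 4.25 and 3.80 in controls and 4.15, 3.62 and 3.94 in knockdown samples, a difference of -0.13 (SE 0.20). The mean of both probe sets differed by 0.099 (SE 0.16). RMA compresses differences of probe sets this dim.

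Malat1 and Gas5 varied together from array to array. Over the 7 arrays Pearson's r was 0.91 (exact permutation p = 0.00397, adjusted p = 0.0119 over 3 pairs) and Spearman's rho 0.96 (exact permutation p = 0.00278, adjusted p = 0.00834). Without knockdown replicates 1 and 3, the arrays farthest from the Malat1 median, r was 0.84 over 5 arrays. The other Gas5 probe sets had r of 0.73, 0.86 and 0.67 with Malat1. Both genes are bright and share the same arrays, so overall array differences enter both. The permutation pooled control and knockdown arrays, so differences between groups and between whole arrays enter its p as well. How often other pairs of bright genes reach such an r was not tested. Within a group there are too few arrays for a value of r.

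Snhg11 shared less of this order, and its r with either gene was lower without knockdown replicate 3. With Malat1 its r was 0.75 (exact permutation p = 0.0843, adjusted p = 0.0857) and rho 0.46 (exact permutation p = 0.302). That r was -0.12 without knockdown replicate 3 and 0.25 without knockdown replicates 1 and 3. With Gas5 its r was 0.72 (exact permutation p = 0.0857) and rho 0.54 (exact permutation p = 0.236). That r was 0.37 without knockdown replicate 3 and 0.41 without control replicate 4 and knockdown replicate 3.

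The named genes whose levels over the 7 arrays were most like those of each RNA were found by Pearson's r, as a measure of likeness only. For Malat1 they were Zfp57, a zinc finger protein that protects imprinted methylation (r = 0.991), Xkr6 (0.98) and Xkr4 (0.974). For Gas5 they were the splicing factor gene Prpf39 (r = 0.982), the neuronal calcium sensor Ncald (0.981) and the thrombospondin Thbs3 (0.973). For Snhg11 they were Rims1, an organiser of synaptic vesicle release (r = 0.994), Ptprn2, a protein of secretory vesicles (0.988), and the neural adhesion molecule Ncam1 (0.986). Without knockdown replicate 3 the values for Snhg11 were 0.917, 0.828 and 0.883, while those for Malat1 and Gas5 stayed between 0.94 and 0.978. These genes were picked as the highest of 19938, so r is given as a description.

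Knockdown replicates 1 and 3 both lay above the other 5 arrays for Malat1 and Gas5, a pattern singled out after the values were seen. Over all genes 8.37% had it. In the hypoxia and glycolysis list, genes of sugar breakdown and low oxygen, 16 of 32 had it, among them Egln3 and Ero1a. It was also seen in 5 of 23 other long non-coding RNAs (Firre, Meg3, Mir100hg, Mir99ahg and Rian) and in 2 of 9 other host genes of small nucleolar RNAs (Rian, which is in both lists, and Snhg17). That hypoxia and glycolysis genes are high in these knockdown arrays was known from earlier results. Averaged over that list, knockdown replicate 1 differed from the controls by 0.88, replicate 2 by -0.05 and replicate 3 by 0.61. Replicate 2 is the one nearest the controls, as it is for Malat1. Knockdown replicates 1 and 3 also had the highest array medians, 4.51 and 4.61 against 4.398 to 4.47 in the other arrays. The part of either in the values of Malat1 and Gas5 was not tested.

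**Figure D4:**
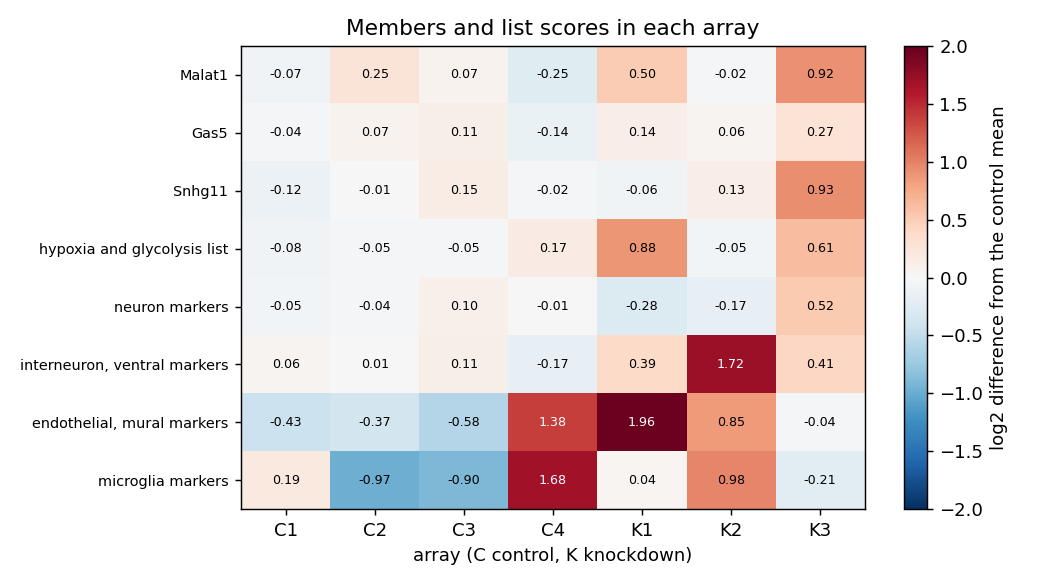
Differences from the control mean in log2 units (colour and printed value) of the 3 members and of 5 list means (rows) in each array (columns). Malat1 and the hypoxia and glycolysis list are both high in K1 and K3 and near 0 in K2, and Snhg11 and the mean of the neuron markers are both high in K3 only.

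Markers of other cells varied between arrays as well. Neuron markers were measured for 22 of 23 genes, and their mean level lay between 7.64 and 7.78 in controls and between 7.41 and 8.20 in knockdown samples. Relative to the controls the mean was -0.28, -0.17 and 0.52 in the knockdown replicates, highest in replicate 3 as for Snhg11. The list was split, with 12 genes higher and 10 lower, and with groups free of overlap for 3 higher and 5 lower genes. The differentiation factors Neurod1 and Neurod6 differed by -1.45 (SE 0.17) and -0.71 (SE 0.13) and were at their lowest, 6.98 and 10.36, in replicate 3, where Syt1 of synaptic vesicles was at its highest, 6.38. Interneuron and ventral markers had 10 of 11 genes higher, with levels of 4.20 to 4.48 in controls and 4.76 to 6.09 in knockdown samples, highest in replicate 2, and Dlx5 and Dlx6 differed by 2.14 (SE 0.69) and 1.15 (SE 0.40). Endothelial and mural markers had 13 of 14 genes higher, with 4.27 to 6.23 and 4.81 to 6.81, and were high in control replicate 4 and knockdown replicate 1, with Tek and Flt1 at 0.86 (SE 0.43) and 1.43 (SE 0.73). Microglia markers ranged from 5.85 to 8.50 in controls and from 6.60 to 7.80 in knockdown samples, with Tyrobp and Fcrls at 0.43 (SE 0.64) and 0.62 (SE 0.97). Erythroid markers had 4 of 6 genes higher, with Hbb-y and Alas2 at 0.72 (SE 0.34) and 0.66 (SE 0.31). Radial glia markers had 8 of 17 genes higher, with Prom1 and Aldoc at -0.47 (SE 0.17) and -0.57 (SE 0.22), and intermediate progenitor markers 3 of 12, with Rasgef1b and Sstr2 at -0.94 (SE 0.21) and -0.65 (SE 0.20). Mesenchyme markers had 10 of 10 genes higher by a median of 0.15 (Lum 0.73, Col1a1 0.17) and oligodendrocyte markers 4 of 7 by 0.11 (Olig2 0.35, Olig1 -0.18). Both lists were dim, with mean levels below the array medians of 4.398 to 4.61. Mesenchyme markers lay at 3.89 to 3.98 in controls and 3.99 to 4.38 in knockdown samples, and oligodendrocyte markers at 4.06 to 4.30 and 4.17 to 4.26. In alternative fits the mesenchyme median was as low as 0.046. The part of these cells in the 3 RNAs was not tested, and fewer cells of a type cannot be told apart from less RNA per cell. The cortical markers Fabp7 of radial glia, Eomes of intermediate progenitors and Tubb3 of neurons were bright in every array, at 9.38 or more.

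No gene passed the test in the background either. By limma, 0 of 19938 genes (0%) were past an adjusted p of 0.05, whether higher or lower. At an unadjusted p under 0.05 there were 0 of the 3 members, against 5.81% of all genes, with 2.20% higher and 3.61% lower in knockdown samples. The groups were free of overlap for 0 of the 3 members, against 5.67% of all genes, with 2.59% higher and 3.07% lower. The counts for other genes of these pathways are therefore given as directions, and no single gene named below passed.

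Other long non-coding RNAs went both ways, with 15 of 23 measured genes higher, 8 lower and a median difference of 0.082. Meg3, an imprinted RNA that restrains growth, read 7.45, 8.0, 7.97 and 7.53 in controls and 9.55, 9.02 and 10.71 in knockdown samples, a difference of 2.02 (SE 0.38). It was higher in all 3 knockdown arrays, with replicate 2 the lowest of them, as for Malat1. Mir99ahg, a microRNA host gene, differed by 1.27 (SE 0.45). Pantr1, an RNA next to the neural factor gene Pou3f3, read 10.05, 10.22, 10.10 and 9.88 in controls and 9.43, 9.66 and 9.42 in knockdown samples. Its difference of -0.56 (SE 0.12) was in the opposite direction, with groups that did not overlap. The groups did not overlap for 1 higher and 2 lower genes of this list.

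Other host genes of small nucleolar RNAs had no common direction, with 5 of 9 higher and a median of 0.0077. Snhg17 differed by 0.84 (SE 0.28) and was higher in every knockdown array than in any control, at 6.10, 6.08 and 6.33 against at most 5.88. Rian, which lies in the imprinted domain of Meg3, differed by 1.64 (SE 0.74) with 7.02 in knockdown replicate 3 and 4.63 and 3.47 in the others. Cwf19l1 differed by -0.72 (SE 0.39). Proteins that build and use small nucleolar RNAs were lower for 18 of 21 genes with a median of -0.31, against 50.2% of all genes lower. This list holds genes with a mean level over 8 and genes from 4 to 8. Over all genes of these levels the medians were -0.16 and -0.012. Relative to the controls the list mean was -0.41, 0.064 and -0.49 in the knockdown replicates, so replicate 2 was not lower. The list median was -0.10 without knockdown replicate 3. Dkc1, the pseudouridine synthase of these particles, differed by -0.53 (SE 0.19), the core protein Nop58 by -0.49 (SE 0.26) and the assembly factor Rpap3 by -0.57 (SE 0.32).

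Of 19 measured genes listed by name as TOP genes, 5 were higher and 14 lower, with a median of -0.068. Their start sequences were not read here. Ribosomal proteins are left aside in this list except for Fau. The lower values rested on knockdown replicate 3, since the list mean relative to the controls was -0.0045, 0.069 and -0.39 in the knockdown replicates. The sign of the median turned without that replicate (0.027), after a repeated quantile normalization (0.01) and after cyclic loess (0.056). Its difference from Gas5 was not tested. Eif3l, a translation initiation subunit, differed by -0.45 (SE 0.24), Igbp1 by -0.52 (SE 0.35) and Fau, a ribosomal protein fused to a ubiquitin-like one, by -0.14 (SE 0.11). Factors of nonsense-mediated decay, which degrades spliced Gas5, had 6 of 19 genes higher and a median of -0.11. The kinase Smg1 differed by 0.47 (SE 0.16) and was higher in every knockdown array, while Eif4a3 of the exon junction complex and Smg8 differed by -0.70 (SE 0.24) and -0.82 (SE 0.29).

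Genes of nuclear speckle proteins and related splicing factors were near evenly placed, with 12 of 29 higher and a median of -0.018. This list was not chosen by binding to Malat1. The splicing factor genes Sf3a1, Prpf6 and Srsf9 differed by -0.49 (SE 0.18), -0.41 (SE 0.17) and -0.54 (SE 0.23). The median of this list was 0.11 after cyclic loess normalization and -0.12 when array medians were made equal, so its sign followed the scaling. Proteins of paraspeckles, the bodies built on Neat1, had 18 of 21 genes lower and a median of -0.18, close to the -0.16 of bright genes. Among them Nudt21 differed by -0.46 (SE 0.23), Nono by -0.25 (SE 0.14) and Cpsf6 by 0.19 (SE 0.10).

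**Figure D5:**
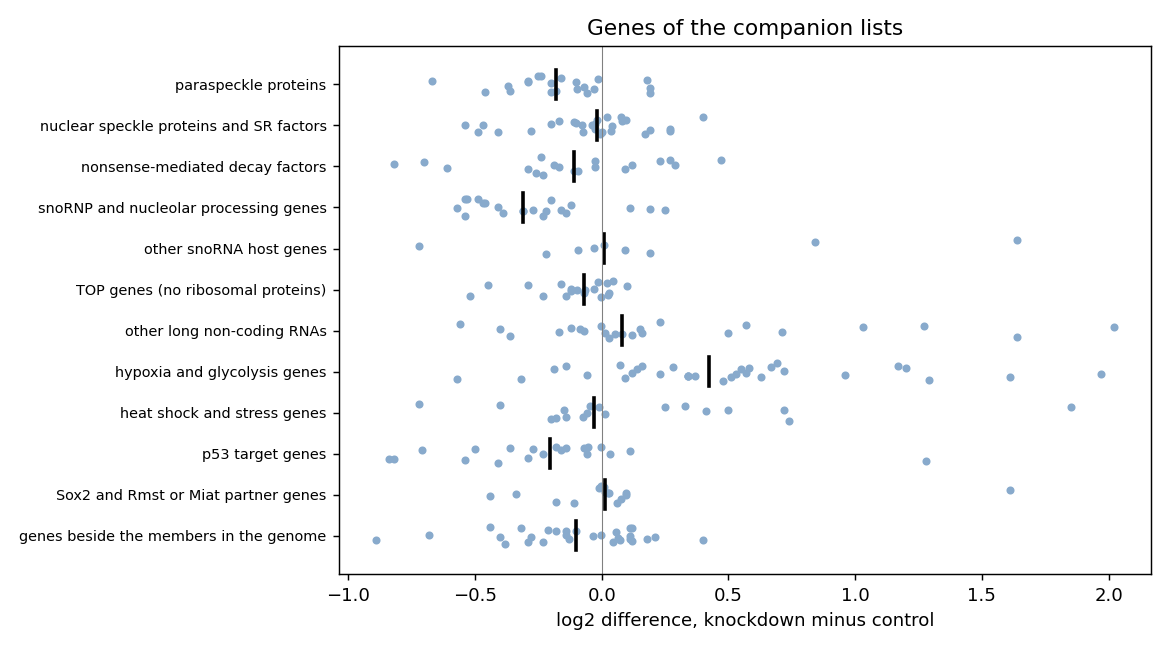
Difference of each gene in log2 units, knockdown minus control (x axis), by list (y axis), with black bars at the list medians. Of the 12 lists drawn, which leave out the cell type markers and the small nucleolar RNAs, hypoxia and glycolysis has the highest median, 0.43, and small nucleolar ribonucleoprotein genes the lowest, -0.31.

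Genes near the 8 loci showed no common direction, with 12 of 29 higher and a median of -0.10. Beside Malat1, Frmd8 differed by 0.12 (SE 0.12), Ltbp3 by -0.033 (SE 0.11) and Slc25a45 by -0.23 (SE 0.21). Beside Gas5, Zbtb37 differed by -0.29 (SE 0.17), Cenpl by -0.89 (SE 0.53), Klhl20 by -0.10 (SE 0.36), Rc3h1 by 0.066 (SE 0.27) and Serpinc1 by 0.12 (SE 0.12). Beside Snhg11, Lbp differed by -0.68 (SE 0.74), with 7.04 in control replicate 4 and at most 4.47 in any other array, Ralgapb by 0.074 (SE 0.16), Bpi by 0.055 (SE 0.097) and Adig by 0.043 (SE 0.11). Of all neighbours, those with the smallest p were Slc25a3 at -0.28 (SE 0.13), Nedd1 at -0.38 (SE 0.19) and Chrm1 at 0.40 (SE 0.23). Sox2, the stem cell factor inside the Sox2ot gene, differed by -0.0025 (SE 0.23). A further list held Sox2, other transcription factor genes such as Dlx1, and genes of protein partners of Rmst or Miat. In it 9 of 15 genes were higher, with a median of 0.012. Celf1, Ptbp1 and Dlx1 differed by -0.44 (SE 0.17), -0.34 (SE 0.18) and 1.61 (SE 0.89).

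Genes of stress programmes moved unevenly. In the hypoxia and glycolysis list 27 of 32 genes were higher, with a median of 0.43, and Ndufa4l2, Egln3 and Ero1a differed by 1.97 (SE 0.43), 1.29 (SE 0.40) and 0.72 (SE 0.23). Of heat shock and stress genes 8 of 18 were higher, with a median of -0.03. Hspa1a differed by 1.85 (SE 0.37), Dnajb1 by -0.72 (SE 0.34) and Trib3 by 0.25 (SE 0.14). Of p53 target genes 17 of 20 were lower, with a median of -0.21, and Plk2, Sesn1 and Zmat3 differed by 1.28 (SE 0.30), -0.54 (SE 0.13) and -0.71 (SE 0.18).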

How the data were processed

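The authors deposited log2 values, 1 column per array. Per the submitters' processing notes these come from RMA, run in Affymetrix Expression Console 1.2. RMA corrects background, normalizes arrays by quantiles and summarises the probes of each set. The array's genome build was not given in the sources used here. Of 35556 probe sets, 21789 had 1 symbol, 1621 several and 12146 none. Symbols were updated through Entrez identifiers in a RefSeq table of GRCm38.p6 (21698 matched), which left 19938 genes. Correlations between arrays lay between 0.937 and 0.976. With arrays, precision rests on the number of samples.

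The groups were compared with limma 3.58.1 under R 4.3.3 (lmFit, eBayes without trend, no covariates, Benjamini-Hochberg over all genes, threshold 0.05). The fit was tested on simulated data. Single values were also tested by exact permutation of the arrays. The members and lists were chosen with earlier results of these data known. Named genes are the members, Trnp1, the 3 genes of each list (2 of each marker list) with the smallest p, and the 3 genes most like each member. Named outside this rule, after values were seen, were Fabp7, Eomes, Tubb3, Syt1, Sox2, Firre, Mir100hg and the neighbours of the measured members. Same-numbered samples were not paired, and alternatives are given in the closing section.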

Additional observations from a re-analysis of the deposited data

Results flagged for a closer look

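In the control group 3 list scores, the mean log2 difference of a list's genes from the control mean, had 1 array far from the other 3 by Dixon's criterion, which chance meets in about 1 of 20 groups. In each case it was control replicate 4. Its score was 0.17 for hypoxia and glycolysis genes, 1.38 for endothelial and mural markers and 0.68 for erythroid markers. No probe set of Malat1, Gas5 or Snhg11 was set apart in this way, and Malat1 and the brightest Gas5 probe set were at their lowest control value in the same array.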

How the results depend on the processing

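The differences of Malat1, Gas5 and Snhg11 stayed positive, each read by its brightest probe set or the mean of its probe sets, and that of Trnp1 negative under every alternative run, and none passed the test. The second Snhg11 probe set on its own gave -0.13. Leaving out the dimmest 50% of genes removes Snhg11. With 1 array left out the values ran from 0.24 to 0.71 for Malat1, 0.10 to 0.21 for Gas5, 0.034 to 0.53 for Snhg11 and -0.46 to -0.31 for Trnp1, and the adjusted p of the alternatives lay between 0.262 and 0.96 for Malat1, 0.572 and 0.96 for Gas5 and 0.584 and 0.98 for Snhg11. Fits with an adjusted p under 0.05 or 0.1 called 0 genes by limma, and an unadjusted p under 0.05 gave 1158. Same-numbered arrays did not deviate together (correlations 0.0278, -0.0507 and 0.0716). With the replicate block the differences were 0.38, 0.11 and 0.32 for Malat1, Gas5 and Snhg11 and -0.37 for Trnp1. A balanced block cannot change a difference, so these must equal the values without the block over the same 6 arrays. That fit without the block was added after the data were seen. The cause of the following shifts of list medians was not tested. With array medians set equal the median was -0.12 for nuclear speckle genes and 0.00075 for oligodendrocyte markers, with quantile normalization repeated 0.091 and 0.0044, and after cyclic loess 0.11 for nuclear speckle genes. Without 1 array the median ran from -0.26 to -0.0095 for nonsense-mediated decay, from 0.16 to 0.75 for hypoxia and glycolysis, from 0.31 to 1.27 for interneuron from -0.22 to 0.24 for neuron and from 0.35 to 1.43 for endothelial markers, and from -0.11 to 0.084 for other host genes. Without control replicate 4 and knockdown replicate 3 it was -0.20 for other host genes, -0.27 for neuron and 1.9 for endothelial markers. The dim signal limits what can be seen of Snhg11.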
